A study of Mus musculus with 3 samples.

Results

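The cells described here are those of the left-right organizer (LRO), the ciliated node at the ventral tip of the early mouse embryo, divided into a crown side and a pit side by their RNA. LRO cells were taken as barcodes that passed quality control and held at least 1 UMI (unique molecular identifier, 1 count per captured RNA molecule) of at least 4 of 6 genes of the motile cilium and node programme, Foxj1, Noto, Pifo, Fam183b, Cfap126 and 1110017D15Rik. There were 264 such cells among 22168, or 1.19%. A cell with at least 2 UMIs of Dand5 and Nodal together was placed on the crown side, a cell with 0 UMIs of both on the pit side, and a cell with 1 UMI between them. The crown side held 113 cells (46, 26 and 41 in embryos 1, 2 and 3), the pit side 113 cells (21, 39 and 53), and 38 cells (10, 14 and 14) lay between.

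The study profiled single cells of 3 wild-type mouse embryos of a C57BL/6 x 129 SvEv background at E8.0. Embryos were selected at the 0 to 1 somite stage, while the stage label reads 0 to 2 somites. Each embryo was dissociated whole after the extraembryonic tissue had been taken off, and gave 1 library of its own made with the 10x Genomics 3′ v3 chemistry. There was no treatment, mutant or transgene in these samples, so the comparison is between cells of the same embryos, and its replicate is the embryo.

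Pit cells line the centre of the node and carry motile cilia, which drive a leftward fluid flow. Crown cells surround them, carry largely immotile cilia that sense the flow, and express the ligand Nodal and its secreted antagonist Dand5, whose mRNA is broken down on the left. The flow-sensing channel of the crown cell cilium is formed by Pkd1l1 and Pkd2, and Bicc1 binds the Dand5 mRNA during its decay.

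Crown-side cells differed from pit-side cells in few genes, 16 of 8305 tested (0.193%) by side alone and 80 (0.963%) with the embryo as a block, and in most of these the crown side was higher. Upk3a, Sat1, Cntnap2, Gal, Nrarp, Cd109 and Foxd1 were among 14 genes higher on the crown side, by 0.97 to 3.53 on the log2 scale, while Igfbp5 and Foxd4 were lower. With the block 55 genes were higher and 25 lower. No tested gene of the motile axoneme, of intraflagellar transport or of the ciliogenesis transcription factors passed the threshold. Both sides had been chosen for genes of the motile cilium and node programme, so cells low in it were left out.

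The cells were chosen by their UMIs of Dand5, Nodal and the 6 genes, whose values are therefore a description. Dand5 was at 415, 390 and 225 CPM (counts per 1e+06 UMIs of all genes) on the crown side of embryos 1, 2 and 3, and Nodal at 196, 114 and 135 CPM. Both genes were detected in 94 of the 113 crown-side cells, Dand5 alone in 12 and Nodal alone in 7. The sum of both had a median of 11 UMIs per crown-side cell and a maximum of 104. Within the crown side, Spearman's rho of Dand5 with Nodal per UMI was 0.718, 0.813 and 0.581 in the 3 embryos, over cells of the same library. Both genes chose these cells, and both were divided by the same UMIs of the cell, from 5570 to 96051. That shared divisor can raise rho, so rho is a description and no measure of joint expression. Just inside the limit, 19 cells held exactly 2 UMIs and 6 held 3, and just outside it, 26 of the 38 cells between the sides held 1 UMI of Dand5 and 12 held 1 UMI of Nodal. The sides therefore met at low counts, while 64 crown-side cells held 10 UMIs or more.

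All 6 genes were found in 152 cells, 5 in 66 and 4 in 46. Just outside that limit, 47 cells held 3 of the 6 genes, and 14.9% of them had at least 2 UMIs of Dand5 and Nodal. The same share was 34.8% in cells with 4 genes, 42.4% with 5 and 45.4% with 6. Among the 20141 quality-control cells with none of the 6 genes it was 0.154%.

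The label rests on the genes of the rule, whose levels on both sides are a description and no independent check. Summed over the 6 genes, the level was 1262 ± 297 CPM (SD, n = 3 embryos) on the crown side and 1279 ± 350 on the pit side. Foxj1, the master regulator of motile cilia, was at 147, 92.0 and 84.0 CPM on the crown side and at 196, 143 and 120 on the pit side. Noto, the node homeobox gene, was at 119, 90.4 and 61.7 CPM against 169, 233 and 80.9. Both were lower on the crown side in every embryo, but their ranges overlapped between sides, and they belong to the rule and were not tested. In all other cells of the embryos Foxj1 was at 0.635 CPM and Noto at 0.224. Position in the node was not measured. A pit cell and a crown cell whose Dand5 and Nodal RNA was not captured cannot be told apart, so the sides are named by their rule.

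Depth differed between the sides. The median crown-side cell held 35627, 20970.5 and 30024 UMIs in embryos 1, 2 and 3, and the median pit-side cell 25157, 14168 and 25965. The ratio within an embryo was 1.35 ± 0.171 (SD, n = 3), higher in 3 of 3 embryos. Permuting the sides within embryos gave an exact two-sided p of 0.25, the smallest that 3 pairs allow, and permuting the 6 medians regardless of embryo gave an exact p of 0.4, where 0.1 is the smallest possible. A deeper cell has more chances to hold 2 UMIs of Dand5 and Nodal, so the comparison over all genes was repeated on cells matched in depth within each embryo (a ratio of medians of 0.981 ± 0.106) and on cells thinned to 5000 UMIs each, which left out 9 pit-side cells and 0 crown-side cells. The mitochondrial share did not separate the sides, at 3.48% ± 0.347 and 3.61% ± 0.723.

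**Figure D1:**
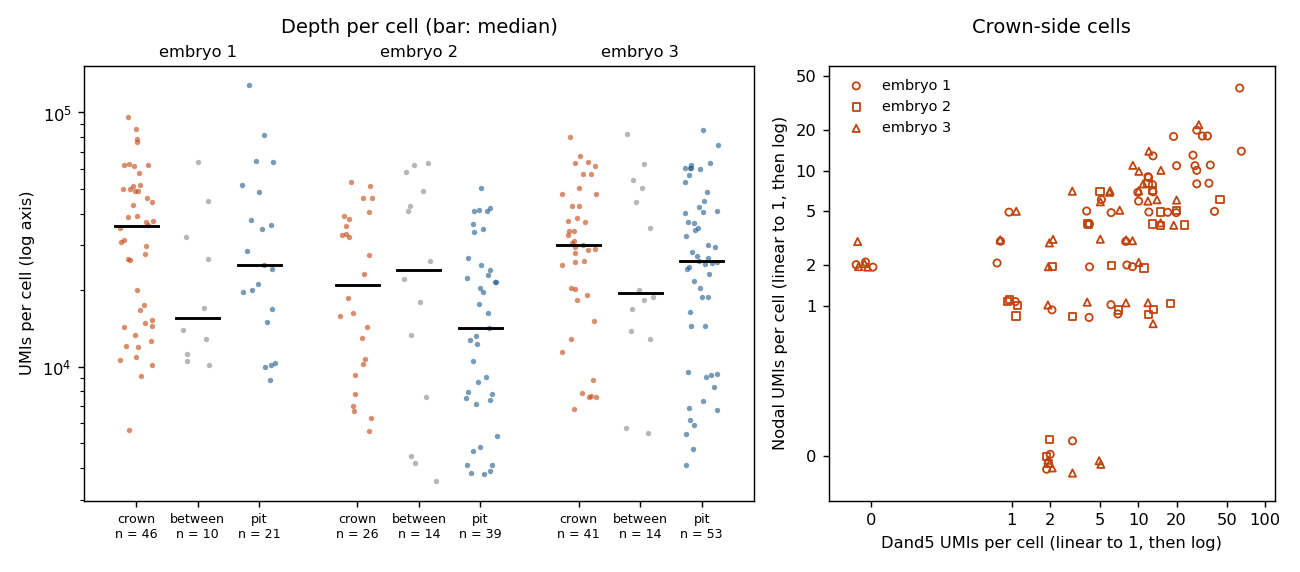
Left, UMIs per cell (log axis) for every LRO cell by embryo and side, with a bar at the median; right, Dand5 against Nodal UMIs in each crown-side cell (linear to 1, then log, with small jitter). The crown-side median lies above the pit-side median in each embryo, and the crown-side cells run from a sum of 2 UMIs up to 104.

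The summed libraries held 641548 to 1685308 UMIs on the crown side and 712566 to 1606064 on the pit side. The libraries shared 14 to 20 barcodes in pairs, none of them of an LRO cell. Doublet scores in the top 6% of their library were given to 16 LRO cells, 4 on the crown side and 7 on the pit side. UMIs were summed per embryo and side, and the 3 crown-side sums were tested against the 3 pit-side sums by the quasi-likelihood method of edgeR, with Benjamini-Hochberg adjustment over 8305 genes and a threshold of 0.05. Of these genes, 16 (0.193%) passed, 14 (0.169%) higher on the crown side and 2 (0.0241%) lower. DESeq2 called 19 (0.229%), 17 (0.205%) higher and 2 lower, and 322 (3.88%) had an unadjusted p under 0.05 by edgeR, 207 (2.49%) higher and 115 (1.38%) lower. Same-numbered sides come from 1 embryo, and with the embryo as a block 80 (0.963%) passed, 55 (0.662%) higher and 25 (0.301%) lower, all 16 genes among them. The sides did not overlap in any of the 16, which were called on these same sums, so this adds no support. Of all tested genes, 6.01% had the crown side wholly above and 2.42% wholly below.

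Upk3a, which encodes a uroplakin of the urothelial cell membrane (chr15:85017141-85022547, GRCm38, + strand), was at 90.8, 101 and 69.9 CPM on the crown side and at 13.2, 8.42 and 11.8 on the pit side. All 3 crown-side values stood far above all 3 pit-side values. The log2 fold change was 2.85 ± 0.229 (SE), with an adjusted p of 4.67e-05 by edgeR. Upk3a was detected in 87 of 113 crown-side cells and in 20 of 113 pit-side cells. Thinned to 5000 UMIs, the shares were 34.5% and 6.73%, and in extraembryonic endoderm cells, which should lack the gene and had a median of 17441 UMIs, 0.343% thinned and 1.55% unthinned. The rest of the embryo held 1.94 CPM.

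Sat1, an enzyme that acetylates polyamines (chrX:155213132-155216449, − strand), was at 142, 137 and 95.9 CPM on the crown side and at 15.9, 37.9 and 20.5 on the pit side. Every crown-side value was above every pit-side value. The log2 fold change was 2.33 ± 0.240, with an adjusted p of 0.000556 by edgeR. Sat1 had UMIs in 53.5% of extraembryonic endoderm cells and in 18.3% of erythroid cells, against 83.2% of crown-side and 41.6% of pit-side cells, so its pit-side share was below that of the former class. Free RNA and expression in that class cannot be told apart, so its share is no background level for Sat1. After thinning, 45.1% of crown-side, 7.69% of pit-side and 19.2% of extraembryonic endoderm cells held it.

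Of the 16 genes, 13 had promoters in the RefSeq table of GRCm38.p6 (250 bases before to 50 after the start), with Cd109, Cdo1 and Enc1 the others. Promoters are shown for Upk3a, which had the smallest adjusted p, and for Sat1 and Fabp7, which each hold 1 of the motifs searched. Their places are chr15:85016891-85017190 on the + strand, chrX:155216400-155216699 on the − strand and chr10:57784673-57784972 on the + strand. Capitals mark a match, and each sequence runs 5′ to 3′ along its gene.
Upk3a: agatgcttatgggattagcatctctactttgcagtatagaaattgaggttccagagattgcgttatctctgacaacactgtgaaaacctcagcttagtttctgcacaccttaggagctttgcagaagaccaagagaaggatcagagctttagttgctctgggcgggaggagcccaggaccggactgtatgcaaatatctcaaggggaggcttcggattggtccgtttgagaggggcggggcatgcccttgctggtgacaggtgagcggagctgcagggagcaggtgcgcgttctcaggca
Sat1: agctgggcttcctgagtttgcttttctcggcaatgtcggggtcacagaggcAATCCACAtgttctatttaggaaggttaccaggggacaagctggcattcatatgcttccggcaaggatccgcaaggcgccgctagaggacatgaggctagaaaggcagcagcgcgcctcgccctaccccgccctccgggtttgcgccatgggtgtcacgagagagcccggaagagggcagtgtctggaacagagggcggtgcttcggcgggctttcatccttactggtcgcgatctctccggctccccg
Fabp7: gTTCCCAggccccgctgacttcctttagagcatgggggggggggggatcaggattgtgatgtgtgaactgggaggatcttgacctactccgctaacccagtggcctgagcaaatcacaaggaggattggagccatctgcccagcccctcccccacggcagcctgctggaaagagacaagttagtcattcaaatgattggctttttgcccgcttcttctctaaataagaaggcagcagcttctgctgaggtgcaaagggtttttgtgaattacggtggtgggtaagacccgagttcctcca
Searched on both strands, the core TGGGAA of RBPJ, the DNA-binding partner of Notch, occurred in 4 of the 22 promoters of these 13 genes (those of Fabp7, Gal and Sgms2) and in 25.6% of all 32851 promoters. AATCCACA or AATACACA, letters bound by FOXH1, the partner of the Smads in Nodal signalling, occurred in 1 of the 22 (that of Sat1) and in 1.82% of all. The motifs do not overlap each other in the sequences shown. A match is a run of letters and not a binding site.

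Genes of the cell surface and matrix came next. Cntnap2, an adhesion protein of the neurexin family, was at 106, 54.6 and 59.5 CPM on the crown side and at 11.9, 5.61 and 11.8 on the pit side. Its sides lay far apart in each embryo, with a log2 fold change of 2.81 ± 0.319 and an adjusted p of 0.000894 by edgeR. Cd109, a membrane-anchored protein that binds TGF-β, was at 48.7, 34.3 and 34.2 CPM against 3.97, 12.6 and 7.47. It was detected in 68 crown-side and 21 pit-side cells and in 0.415% of extraembryonic endoderm cells, with a log2 fold change of 2.27 ± 0.317. Olfml2a, a secreted olfactomedin-domain protein, was at 38.0, 43.6 and 29.7 CPM against 13.2, 7.02 and 7.47, a log2 fold change of 1.96. It lost its call when cells were matched on depth without the block, at a log2 fold change of 1.84 and an adjusted p of 0.0869 by edgeR, and kept it with the block, at 0.00725.

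Gal, the precursor of the neuropeptide galanin (chr19:3409915-3414544, − strand), was at 182, 137 and 192 CPM on the crown side and 60.8, 60.3 and 56.0 on the pit side. The pit-side values were nearly alike, and all crown-side values were above them. The log2 fold change was 1.51 ± 0.169, with an adjusted p of 0.000894 by edgeR. Gal was also on the pit side well above the level of 9.08 CPM in the rest of the embryo, in 71 of 113 cells against 104 of 113, while 1.62% of extraembryonic endoderm cells had a UMI.

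Nrarp, a target and feedback inhibitor of Notch (chr2:25180758-25183339, + strand), was at 76.0, 65.5 and 30.5 CPM on the crown side and at 15.9, 1.40 and 4.98 on the pit side. The lowest crown-side value was above the highest pit-side value, and both sides were spread widely. The log2 fold change was 2.95 ± 0.472 with an adjusted p of 0.0137 by edgeR. DESeq2 gave 2.91 with an adjusted p of 0.159. With the embryo block the adjusted p was 1.95e-10, and Nrarp was detected in 66 crown-side and 13 pit-side cells. It lost its call in 5 of 22 alternatives. Among these, the log2 fold change was 2.52 without embryo 2, with an adjusted p of 0.461 by edgeR. At or above the median depth it was 2.13, with 0.318.

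Foxd1, a forkhead transcription factor best known from kidney stroma (chr13:98354242-98359305, + strand), was at 26.1, 23.4 and 19.3 CPM on the crown side and at 0, 4.21 and 2.49 on the pit side. It was found in 39 crown-side cells and in 6 pit-side cells, which held 85 and 7 UMIs. The log2 fold change was 3.22 ± 0.478, with an adjusted p of 0.00984 by edgeR. Foxd4, of the same family (chr19:24899236-24901197, − strand), went the other way, at 11.9, 14 and 17.8 CPM on the crown side and 51.6, 42.1 and 31.1 on the pit side. Its crown-side values all lay below its pit-side values, with a log2 fold change of -1.51 ± 0.276 and an adjusted p of 0.0454 by edgeR. Foxd4 lost its call in 11 of 22 alternatives, more than any other of the 16 genes. In cells matched on depth its log2 fold change was -1.30 with an adjusted p of 0.285, and 0.0397 with matching and the block.

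Igfbp5, which binds insulin-like growth factors (chr1:72857932-72874884, − strand), was at 52.2, 62.3 and 31.2 CPM on the crown side and at 229, 244 and 95.9 on the pit side. The pit side was above the crown side in all 3 embryos and the ranges did not overlap, although embryo 3 was low on both sides. The log2 fold change was -2.0 ± 0.305, with an adjusted p of 0.0102 by edgeR, and -2.15 in cells matched on depth, with an adjusted p of 0.00742. Igfbp5 lost its call in 4 of 25 alternatives. The adjusted p by edgeR was 0.155 at or above the median depth and 0.115 with the crown side at 1 UMI or more. Without embryos 1 and 2 it was 0.159 and 0.291. Per cell, where the shallower pit side is at a disadvantage, Igfbp5 held 1.5 UMIs on the crown side and 4.43 on the pit side. Extraembryonic endoderm cells had UMIs of Igfbp5 in 67.0% of cells and erythroid cells in 6.14%, against 55.8% on the crown side and 80.5% on the pit side. Thinned, the shares were 31.3% in extraembryonic endoderm, 19.5% on the crown side and 42.3% on the pit side.

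The remaining called genes were enzymes, transporters and regulators. Sgms2, a sphingomyelin synthase, was at 22.0, 24.9 and 17.1 CPM on the crown side and at 3.97, 0 and 1.25 on the pit side, where 5 UMIs were counted in all. Cdo1, which oxidizes cysteine, was at 41.5, 35.9 and 17.8 CPM against 2.64, 5.61 and 1.25, and Atp9a, a membrane phospholipid transporter, at 49.8, 46.8 and 27.5 against 6.61, 14 and 8.72. None of these 3 overlapped between sides, with log2 fold changes of 3.53, 3.46 and 2.04. Their crown-side counts took all 3 past the filter on low counts, and they were called on these same sums. The lack of overlap therefore adds no support. Sgms2, Cdo1 and Atp9a had UMIs in 4.42%, 5.31% and 21.2% of pit-side cells, below the 12.6%, 38.2% and 29.4% of extraembryonic endoderm cells, and in 39.8%, 44.2% and 66.4% of crown-side cells, and 7 LRO cells (0, 2 and 5 per embryo) also met the definition of that class. Without those cells all 16 genes were called. Enc1, a kelch protein of the actin cytoskeleton, was at 68.8, 59.2 and 34.2 CPM against 13.2, 18.2 and 16.2. Fabp7, a fatty acid binding protein of neural progenitors, was at 109, 109 and 90.7 against 26.4, 61.7 and 29.9. Ddit4, a stress-induced inhibitor of mTORC1, was at 125, 111 and 80.3 against 51.6, 50.5 and 52.3. Their log2 fold changes were 1.69, 1.40 and 0.97, and the smallest of these was near the threshold, with an adjusted p of 0.0454 by edgeR.

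**Figure D2:**
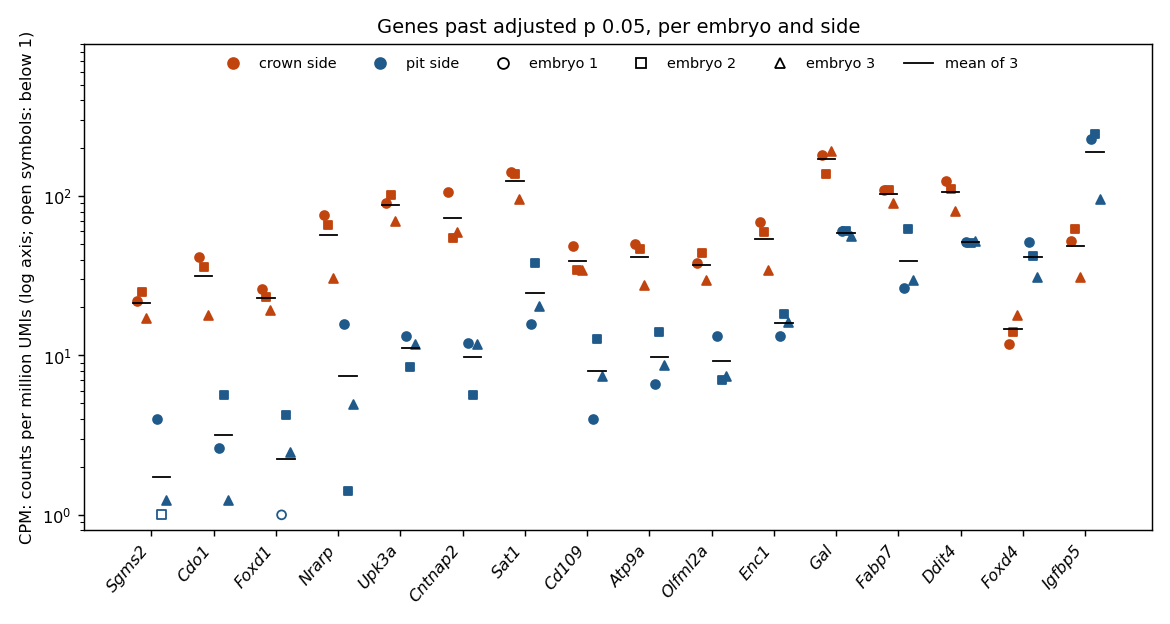
CPM (log axis) of the 16 genes past the threshold, 1 symbol per embryo and side, with a line at the mean of 3 and open symbols for values below 1. For Gal the crown side lies between 137 and 192 and the pit side between 56.0 and 60.8, and Igfbp5 and Foxd4 are the genes with the pit side on top.

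In the genes named here, cells between the sides lay near the pit side for some and spread over both sides for others. Upk3a was at 8.22, 26.4 and 11.3 CPM in them, Cntnap2 at 4.11, 16.8 and 4.53, and Nrarp at 4.11, 7.21 and 4.53. These values overlapped the pit-side range and lay below all crown-side values. The sums between the sides held only 243164, 416109 and 441606 UMIs, so the lowest of these values rest on very few UMIs. Gal, at 169, 48.1 and 86.0 CPM, and Igfbp5, at 177, 130 and 47.6, spread over both sides. With only 10 to 14 cells per embryo, no test was run on them. When they were added to the crown side, 4 genes were called, and when the crown side was limited to cells with at least 4 UMIs, 23 were called.

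The 16 genes were looked at again in cells matched on depth, split by depth or thinned. They were called in these same cells, so a sign that was kept is a description and no independent support. In cells matched on depth 14 of 7339 genes (0.191%) were called, 13 (0.177%) higher and 1 (0.0136%) lower. All 16 had the same sign there and 12 were called. With matching and the embryo block 72 genes (0.981%) were called, 52 (0.709%) higher and 20 (0.273%) lower, with all 16 among them. In cells below the median depth of their embryo 15 could be tested, all with the same sign and 9 called. In cells at or above it 14 could be tested, again all with the same sign, and 4 were called. In cells thinned to 5000 UMIs 8 of the 16 could be tested, all with the same sign, and 5 were called, with Cd109 at an adjusted p of 0.0512, Fabp7 at 0.0822 and Ddit4 at 0.196 by edgeR. When the rule itself was applied to thinned cells, the 8 that could be tested were all called. Upk3a, Sat1 and Cntnap2 were called in each of the 25 alternatives. Dividing the cells by Dand5 alone gave log2 fold changes of 2.84, 2.41 and 3.05 for these 3 genes, and dividing them by Nodal alone 2.88, 2.17 and 2.98.

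Leaving out embryo 1 left 5 of the 16 calls and leaving out embryo 2 also left 5, while leaving out embryo 3 left all 16 and gave 26 in total. Upk3a, Sat1, Cntnap2 and Gal were called in all 3 cases, and the sign of each of the 16 genes was kept in every case.

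**Figure D3:**
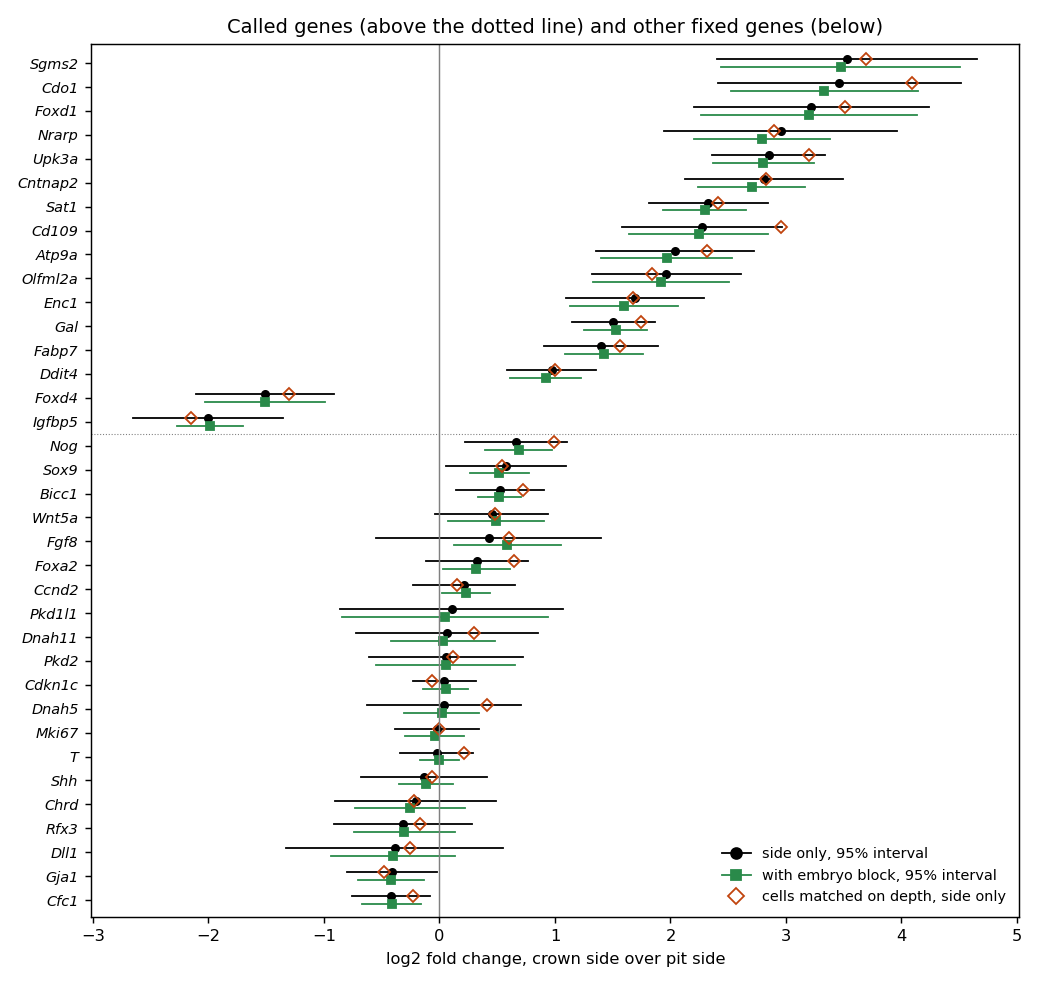
Log2 fold change of the crown side over the pit side for the 16 called genes (above the dotted line) and for 20 fixed genes named whatever their result (below), with 95% intervals without (circles) and with (squares) the embryo block, and in cells matched on depth (diamonds). The diamonds of the called genes keep their side of 0, and the circles of the lower genes lie between -0.42 for Cfc1 and 0.66 for Nog.

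The list of flow sensing and Dand5 mRNA decay holds genes of the node cilium beside mRNA decay genes that every cell uses, such as Cnot1 and Dicer1. Of 20 listed genes, 13 could be tested and 0 passed, with 2 higher and 0 lower at an unadjusted p under 0.05 by edgeR, 0 by DESeq2, and a median log2 fold change of 0.10 against -0.00 over all tested genes. At that unadjusted p, 2.49% of all tested genes were higher and 1.38% lower. Pkd1l1 was at 10.7, 4.68 and 9.67 CPM on the crown side and at 11.9, 11.2 and 4.36 on the pit side, and Pkd2 at 15.4, 18.7 and 22.3 against 23.8, 12.6 and 16.2. Pkd1l1 had a UMI in 26.5% of crown-side, 16.8% of pit-side and 0.0377% of extraembryonic endoderm cells, and Pkd2 in 47.8%, 33.6% and 11.7%. Neither channel subunit separated the sides by level, with 95% intervals of the log2 fold change from -0.86 to 1.07 and from -0.61 to 0.72. Bicc1 was at 428, 301 and 287 CPM against 284, 240 and 174, higher on the crown side in each embryo and without overlap. Its log2 fold change of 0.52 had an adjusted p of 0.966 without and 0.000227 with the embryo block, and in cells matched on depth with the block it was 0.73 with an adjusted p of 9.57e-05, all by edgeR. Bicc1 was at 15.8 CPM in the rest of the embryo.

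Among 19 further genes of the Nodal pathway, 9 could be tested and 0 passed, with 0 higher and 3 lower at an unadjusted p under 0.05 by edgeR, 0 by DESeq2, and a median of -0.02. Over all tested genes the unadjusted shares were 2.49% higher and 1.38% lower. Cfc1, the Nodal co-receptor Cryptic, was at 122, 90.4 and 105 CPM on the crown side and at 155, 154 and 115 on the pit side. It was lower on the crown side within each embryo, but the ranges overlapped, with a log2 fold change of -0.42 and adjusted p values of 1.00 without and 0.126 with the block, by edgeR. Cer1, a secreted antagonist of Nodal related to Dand5, was at 2.37, 3.12 and 11.2 CPM against 37.0, 11.2 and 19.9. It was lower with the block, with a log2 fold change of -2.07 and an adjusted p of 0.000676, and had an adjusted p of 0.447 without it. Lefty2, a feedback inhibitor, had UMIs in 3 crown-side cells and 1 pit-side cell. Lefty1 had 0 UMIs on both sides, and Gdf1, the partner ligand of Nodal, is listed at 0 on both sides and in the rest of the embryo. Gdf1 overlaps Cers1, and this 0 may come from how reads that fit both genes were counted. That was not tested, and the 0 is not read as a measure of its expression.

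Both sides were chosen for genes of the motile cilium and node programme, so cells low in that programme were left out of the comparison of its other genes. None of 61 tested genes of the axoneme and its dyneins passed, with 0 in either direction at an unadjusted p under 0.05 by edgeR and 0 by DESeq2, and the median log2 fold change was -0.05. The genes ran from -0.99 for Dnah3 to 0.49 for Dnaaf5, and for 47 of the 61 the whole approximate 95% interval lay within 1 on either side of 0. Dnah11, the left-right dynein heavy chain, was at 43.9, 37.4 and 19.3 CPM on the crown side and at 34.4, 51.9 and 15.6 on the pit side, and Dnah5 at 83.7, 74.8 and 37.9 against 63.5, 96.8 and 35.5. Both ranges overlapped widely, with log2 fold changes of 0.06 and 0.04 and intervals from -0.73 to 0.85 and from -0.63 to 0.70. Summed over the list, the crown side held 4068, 3520 and 2379 CPM and the pit side 3886, 4220 and 2164. Of 39 tested genes of intraflagellar transport and the BBSome, 0 passed (0 higher and 1 lower unadjusted by edgeR, 0 by DESeq2), with a median of 0.02, and of 7 ciliogenesis transcription factors, 0 passed (0 unadjusted by edgeR, 0 by DESeq2), with a median of -0.07. Unadjusted, 2.49% of all tested genes were higher and 1.38% lower. Rfx3, a transcription factor of ciliated cells, had a log2 fold change of -0.32 with an interval from -0.91 to 0.28.

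The midline and notochord genes, which the node shares with the axial mesoderm it gives rise to, passed in 0 of 17 cases by edgeR and by DESeq2, with 4 higher and 2 lower at an unadjusted p under 0.05 and a median of 0.13. At that unadjusted p by edgeR, 2.49% of all tested genes were higher and 1.38% lower. T, the mesoderm factor Brachyury, was at 706, 533 and 601 CPM on the crown side and at 641, 728 and 471 on the pit side. Shh, the midline signal, was at 188, 167 and 106 against 186, 227 and 93.4. Neither separated the sides, with log2 fold changes of -0.02 and -0.14. With the embryo block 4 of the 17 passed, 2 in each direction, where 0.662% of all tested genes were higher and 0.301% lower. Nog, an antagonist of BMP, was at 141, 126 and 103 CPM against 62.1, 112 and 59.2, higher on the crown side in 3 of 3 embryos, with a log2 fold change of 0.68 and an adjusted p of 0.00217 with the block and 0.773 without, by edgeR. Sox9, a transcription factor of notochord and cartilage, was at 228, 168 and 128 CPM against 163, 74.4 and 104, with adjusted p values of 0.0173 with and 1.00 without the block. Matched on depth with the block, Nog had 0.99 and an adjusted p of 0.000509, and Sox9 0.51 and 0.181. Foxa1, a factor of endoderm and axial cells, and Krt19, a simple-epithelium keratin, were lower with the block, with log2 fold changes of -1.36 and -0.63. Foxa2 (0.32) and the BMP antagonist Chrd (-0.21) had intervals that spanned 0.

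In the Notch list, 1 of 16 tested genes was higher by edgeR without the block, Nrarp, and 0 lower, with a median of -0.01. Over all tested genes 0.169% were higher and 0.0241% lower in that fit. By DESeq2 0 genes of the list passed. At an unadjusted p under 0.05 by edgeR 4 of its genes were higher and 0 lower, where 2.49% and 1.38% of all tested genes were. With the embryo block Hes7 and Notch1 were also higher, 3 of the 16 in all, where 0.662% of all tested genes were higher. Hes7, a Notch-regulated repressor of the segmentation clock, was at 106, 106 and 77.3 CPM on the crown side and at 62.1, 68.8 and 24.3 on the pit side, and the receptor Notch1 at 114, 77.9 and 73.6 against 64.8, 56.1 and 36.1. Neither overlapped between sides, and their log2 fold changes with the block were 0.97 and 0.76, with adjusted p values of 6.14e-05 and 0.00174 by edgeR and 0.571 and 0.513 without the block. The ligand Dll1 was at 27.9, 23.4 and 23.1 CPM against 62.1, 33.7 and 10.6, and its ranges overlapped.

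The Wnt and planar polarity list had 0 of 27 genes past the threshold with or without the block and by DESeq2, with 5 higher and 0 lower at an unadjusted p under 0.05, against 2.49% and 1.38% of all tested genes. Its median was 0.23 and that of all genes -0.00, a difference that was not tested, and its genes ran from -0.22 for Tcf7l1 to 0.81 for Wnt8a. Wnt5a, a ligand of planar polarity, was at 39.2, 34.3 and 49.8 CPM on the crown side and at 25.1, 29.5 and 32.4 on the pit side, without overlap, and had a log2 fold change of 0.45 with an interval from -0.04 to 0.94. Wnt3 was too low to test, at 7.12, 4.68 and 5.21 CPM in 18 crown-side cells and 2.64, 0 and 1.87 in 4 pit-side cells. Of 29 FGF and BMP genes, 0 passed by edgeR without the block, with 1 higher and 0 lower unadjusted and a median of 0.06. Id1, a BMP-induced inhibitor of helix-loop-helix factors, passed by DESeq2 and with the block. It was at 249, 291 and 268 CPM against 97.8, 185 and 128, with an adjusted p of 0.0524 without and 1.91e-09 with the block by edgeR. Fgf8 was at 23.7, 63.9 and 35 against 9.25, 56.1 and 20.5, higher in 3 of 3 embryos but overlapping, with adjusted p values of 1.00 without and 0.376 with the block.

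Genes of the epithelium, its junctions and matrix passed in 0 of 32 cases by edgeR without the block and by DESeq2, with 4 higher and 3 lower unadjusted and a median of 0.02. Over all tested genes 2.49% were higher and 1.38% lower unadjusted, and 0.662% and 0.301% with the block. With the block Vtn, the matrix protein vitronectin, and Cdh1, the epithelial cadherin, were higher, with log2 fold changes of 1.00 and 0.58. Gja1, the gap junction protein connexin 43, was at 109, 65.5 and 75.1 CPM on the crown side and at 102, 128 and 103 on the pit side, with a log2 fold change of -0.41 and an adjusted p of 1.00.

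No gene of proliferation passed by edgeR without the block. None of 43 S-phase genes passed by edgeR or DESeq2 (2 higher and 0 lower unadjusted, median 0.13), and none of 53 genes of the G2 and M phases (1 higher and 4 lower unadjusted, median -0.12). Over all tested genes 2.49% were higher and 1.38% lower unadjusted, and 0.662% and 0.301% with the block. With the block, Cks2, a partner of the mitotic cyclin-dependent kinase, was lower, with a log2 fold change of -0.33. Mki67 was at 131, 175 and 136 CPM on the crown side and at 178, 125 and 126 on the pit side, with a log2 fold change of -0.02 and an interval from -0.39 to 0.34. Of 10 genes of cell cycle exit and the D cyclins, 0 passed by edgeR without the block (2 higher and 0 lower unadjusted, median 0.03). Ccnd1, a cyclin of the G1 phase, was at 534, 477 and 390 CPM against 292, 296 and 264, without overlap, and had a log2 fold change of 0.67 with an adjusted p of 0.0524 without and 1.94e-07 with the block. It passed by DESeq2. Cdkn1b, an inhibitor of the same step, was higher with the block only, at 0.78 and an adjusted p of 0.00489. Ccnd2 and Cdkn1c had log2 fold changes of 0.21 and 0.04.

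**Figure D4:**
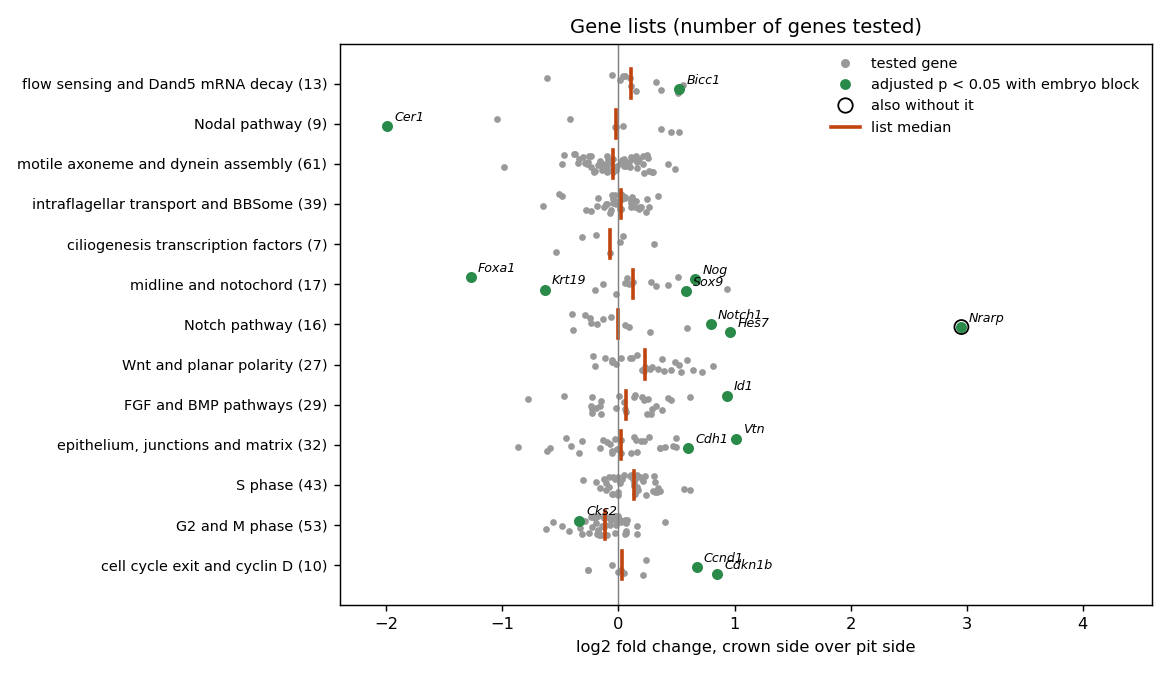
Log2 fold change of every tested gene of 13 gene lists (number tested in brackets), with a bar at the list median. Filled green points, named, passed with the embryo block, and the ringed point, Nrarp at 2.95, passed without it as well. The list medians lie between -0.12 for the G2 and M phase genes and 0.23 for the Wnt and planar polarity genes.

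The embryo block added 64 calls that were not made without it. Gstm5, a glutathione transferase, was the gene with the smallest adjusted p among them, at 889, 1406 and 800 CPM on the crown side and 398, 995 and 487 on the pit side. It was higher within each embryo while the ranges overlapped, with embryo 2 high on both sides. It had a log2 fold change of 0.73 and an adjusted p of 2.99e-10 with the block and 1.00 without. Tagln2, an actin-binding protein, was at 501, 460 and 398 against 276, 327 and 230 without overlap, with adjusted p values of 9.51e-08 and 0.0657. Hp and Creg2 were nearly at 0 in the rest of the embryo, at 0.0601 and 0.142 CPM. Hp, the haemoglobin-binding protein haptoglobin, was at 26.7, 28.1 and 14.9 CPM on the crown side against 1.32, 7.02 and 4.98 on the pit side, and Creg2, a secreted glycoprotein, at 20.8, 14 and 19.3 against 5.29, 4.21 and 4.98. Their adjusted p values were 0.056 and 0.0605 without the block and 0.000273 and 0.00377 with it. These 4 genes, and those of the next paragraph, were chosen after their values were seen.

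Among genes lower on the crown side with the block were Fos, an immediate-early gene, and Tff3, a secreted trefoil peptide. Fos was at 29.1, 26.5 and 9.67 CPM on the crown side against 122, 33.7 and 18.7 on the pit side, and 1 cell held 21.2% of its pit-side UMIs. The cardiac genes Myl7, Tnnt2 and Actc1 were also lower with the block, with log2 fold changes of -1.15, -2.0 and -2.07. Embryo 2 led these, with Actc1 at 132 CPM on its pit side against 14.5 and 5.60 in the other embryos, and 1 cell held 50.9% of the pit-side UMIs of Actc1, 34.5% of those of Tnnt2 and 31.4% of those of Myl7. All 12 markers of lateral mesoderm, mesenchyme and endothelium were detected, summed to 211, 424 and 302 CPM on the crown side and 365, 539 and 445 on the pit side. Among other neighbours, 10 of 10 markers of definitive endoderm summed to 1143 to 1392 CPM on the crown side and 961 to 1204 on the pit side. The 8 notochord markers summed to 1634 to 2051 against 1469 to 2163, the 10 caudal epiblast markers to 799 to 941 against 455 to 1001, and the 10 presomitic mesoderm markers to 588 to 752 against 265 to 873. The 8 neural plate markers summed to 404 to 466 against 438 to 483 CPM, and the 8 extraembryonic endoderm markers to 382 to 968 against 463 to 837. The 8 erythroid markers summed to 20.2 to 117 against 43.6 to 78.6. None of these lists had a marker at 0 and each overlapped between the sides, with no marker past the threshold without the block. Within each embryo the sum of the lateral mesoderm list was lower on the crown side. Of its 11 tested markers, 1 had a positive log2 fold change, with a median of -0.38. The sum of the definitive endoderm list was higher on the crown side within each embryo, with 6 of 10 markers positive and a median of 0.17. Among all 8305 tested genes 4069 had a positive log2 fold change, so 6 of 10 was near the share over all genes. With the block Cdx2 (caudal epiblast), Hes7 (presomitic mesoderm) and Nog (notochord) were higher. Cer1 and Foxa1 (definitive endoderm), Krt19 (notochord) and Pmp22, Myl7 and Tnnt2 (lateral mesoderm and mesenchyme) were lower, Foxa1 being a notochord marker too. Cdx2 had a log2 fold change of 0.63 with an adjusted p of 0.000834 and Pmp22 -0.75 with 0.0208. The part of other cells in these calls was not tested. At an unadjusted p under 0.05 by edgeR, 7 markers in these 8 lists were higher and 7 lower. A gene in several lists counts in each, and by DESeq2 0 passed. The lists had 1 to 11 tested markers each. Over all tested genes the unadjusted shares were 2.49% higher and 1.38% lower, so markers in these lists passed more often, which was not tested. With the block, 0.662% of all tested genes were higher and 0.301% lower.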

How the data were processed

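Single-cell libraries of 3 wild-type embryos were used, 1 per embryo. The deposited values are raw counts of UMIs per gene and barcode that the authors made with Cell Ranger 3.1.0 against mm10 with the EGFP sequence added. They were not normalized, and as counts of 3′ ends they were not divided by gene length. Barcodes with 1500 to 8500 genes (7500 in replicate 2) and at most 10% mitochondrial UMIs were kept, 22168 of 23533. The study applied these limits and kept fewer. After a first clustering it also removed clusters with a low mitochondrial share, few genes and mixed markers, taken as doublets or empty droplets. That removal was not repeated here, so such barcodes may remain. Doublets were left in: Scrublet (scanpy 1.11.5) called 1 per library by its own limit, so the top 6% of scores were removed as an alternative.

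UMIs were summed per embryo and side, since cells are not replicates, and tested with edgeR 4.0.16 (TMM, filterByExpr, quasi-likelihood test, R 4.3.3), without the 8 genes of the rule. DESeq2 1.42.0 was an alternative. Deviations from the side means correlated within embryos 1, 2 and 3 at 0.252, 0.148 and 0.325 and the sides of 1 number come from 1 embryo, so the numbers pair them. In counts simulated for this comparison (8358 genes), 97 of 99 genes changed 4-fold and 34 of 100 changed 2-fold were recovered, with 3.68% false calls. The simulation gave every gene the same set dispersion and held no embryo effect, so these rates need not hold for the real counts. Coordinates are from GENCODE release M21 (30934 of 31054 features found) and promoters from RefSeq.

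Genes were named by these rules: the 10 largest changes in each direction past the threshold with at least 20 CPM and the same sign in all embryos, 24 fixed genes, up to 4 called genes of each list, and the genes of the rule. Gal, Fabp7, Enc1, Ddit4 and the genes called only with the block were named after their values were seen. The members and lists were chosen with earlier results of these data known. Free RNA was judged in 2650 extraembryonic endoderm cells (at least 10 UMIs each of Ttr, Apoa1 and Rbp4) and 619 erythroid cells (at least 20 each of Hbb-bh1 and Hba-x, median 16021 UMIs). The erythroid cells numbered 0, 541 and 78 in embryos 1, 2 and 3. Some genes, such as Igfbp5, Sat1 and Cdo1, were found in a large part of the extraembryonic endoderm cells. For these, free RNA and expression in that class cannot be told apart, so its share is no background level. The rest of the embryo means all other cells that passed quality control.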

Additional observations from a re-analysis of the deposited data

How the results depend on the processing

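By number alone, the count of 16 genes between crown and pit side was within 1.5 times under 14 of the 25 alternatives. It moved further under the others. It was 80 with the replicate block, 61 with no filter on low counts (of 17151 genes), 8 in cells thinned to 5000 UMIs (of 3065), 5 in cells at or above the median depth (of 7355), 4 with the crown side at 1 UMI or more, 28 with the sides by Nodal alone and 27 with members of 3 of 6 genes. Added after seeing the data, matching on depth together with the replicate block gave 72. A count within 1.5 times need not hold the same genes, and the number tested differed. The rule on thinned cells called 16 of 1764 genes, 8 of them among the 16 of the main fit. Thinned cells with the block gave 21 of 3065, with 8 shared, and cells below the median depth 12 of 3973, with 9 shared. Only 8, 8 and 15 of the 16 could be tested there. The other alternatives within 1.5 times shared 12 to 16. Leaving out 1 embryo gave 5 to 26 genes, with 5 each without embryo 1 or 2, while the 16 genes kept their sign (Cdo1 at 3.14 and 3.99 and Igfbp5 at -1.91 and -1.95 without embryos 1 and 2). The permutation within embryos was added after seeing the data. DESeq2 called 19. The crown-to-pit ratio of depth per cell was 1.29 to 1.45 without 1 embryo and 0.981 in cells matched on depth. The cause of these changes was not tested, except that the thinned and split sums hold fewer UMIs and fewer tested genes.

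Over 36 named genes and 839 values under the alternatives, the 16 called genes never changed sign where they could be tested. Of the values, 68 lost the call, 10 gained it and 25 changed sign by more than 1 standard error; 40 more changed sign by less, in genes called in neither fit. The changes of sign were all in genes that were not called. T was at 0.21 in cells matched on depth, 0.13 in cells with at least 10000 UMIs, 0.26 at or above the median depth, 0.19 with the sides by Nodal alone, 0.22 with 3 of 6 genes, 0.23 matched on depth with the block and from -0.17 to 0.18 without 1 embryo. Shh was at 0.12, 0.33, 0.42 and 0.19 in cells with at least 10000 UMIs, at or above the median depth, by Nodal alone and with 3 of 6 genes. Dnah5 was at -0.59 in thinned cells, -0.96 with the rule on thinned cells and -0.80 in thinned cells with the block, where Dnah11 was at -0.44. Rfx3 (0.045) and Chrd (0.41) changed at or above the median depth, Fgf8 (-0.036) by Nodal alone, Dll1 (0.35) and Mki67 (0.22) with 5 of 6 genes, Ccnd2 (-0.32) below the median depth and Cdkn1c (-0.13) with the crown side at 1 UMI or more. Leaving out 1 embryo gave -0.91 to 0.24 for Dll1, -0.53 to 0.13 for Chrd and -0.23 to 0.25 for Mki67.

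Besides the calls given with the results, the replicate block changed no other call of a named gene. Low counts limit Foxd1, Sgms2 and Cdo1 on the pit side, and these genes passed the filter on low counts through their crown-side values.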
